A study of Homo sapiens with 10 samples.

Results

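The nuclear-encoded subunits of the respiratory chain were followed in VCaP cells after knockdown of 1 of 2 chromatin remodelling ATPases, SMARCA4 or SMARCA1. Members were taken by gene symbol alone: *NDUFA*, *NDUFAB*, *NDUFB*, *NDUFC*, *NDUFS* and *NDUFV* symbols with a number for complex I, *SDHA* to *SDHD* for complex II, *UQCR* symbols and *CYC1* for complex III, *COX4* to *COX8* symbols for complex IV, and *ATP5* symbols for complex V, without pseudogenes and antisense genes. Of the 59386 genes counted, 93 matched. They comprised 89 subunit genes, 2 divergent transcripts (*NDUFA6-DT* and *UQCRFS1-DT*) and 2 readthrough genes (*ATP5MF-PTCD1* and *NDUFC2-KCTD14*). By complex there were 37 subunit genes for complex I, 4 for complex II, 10 for complex III, 19 for complex IV and 19 for complex V. *NDUFA4* and its paralog *NDUFA4L2* were counted with complex IV, where the NDUFA4 protein is now placed. A total of 81 of the 89 passed the filter on low counts and were tested.

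VCaP is a human prostate cancer cell line that carries the TMPRSS2-ERG fusion, and all groups are this 1 line. RNA was sequenced from control cells and from cells collected 72 h after transfection with siRNA A or siRNA B against *SMARCA4*, or with siRNA A or siRNA C against *SMARCA1*, at 30 pmol of siRNA, with 2 libraries in each of the 5 groups. No siRNA and no amount were stated for control cells, and the labels call those cells both wild type and control. Whether they were transfected is therefore not known from the labels. Nothing said that the 2 libraries of a group came from separate cultures, so p-values measure the spread between these libraries, which may be technical.

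The respiratory chain sits in the inner mitochondrial membrane. Complexes I and II pass electrons from NADH and succinate to ubiquinone, complex III passes them on to cytochrome c and complex IV to oxygen. Complexes I, III and IV pump protons, and complex V, the ATP synthase, uses the resulting gradient to make ATP. Most subunits are encoded in the nucleus and imported, while the mitochondrial genome encodes a few hydrophobic core subunits of every complex except complex II. Promoters of the nuclear genes often hold sites for the factors NRF1 and GABPA (an ETS family factor) and for YY1.

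Of the 89 subunit genes, 70 matched a RefSeq promoter entry (GRCh38.p14, 250 bases before to 50 after the start site). Both strands were searched for the letters CGCANGCG (NRF1), CCGGAAG (ETS), AAGATGG (YY1) and CACGTG (the E-box bound by MYC and USF factors). The NRF1 letters were found in 35.7% of member promoters, 18% of the 11677 promoters that matched a tested gene and 10.6% of all 27305 promoters. The ETS letters were in 28.6%, against 18% for tested genes and 10.7% for all. The YY1 letters were in 22.9%, against 7.17% and 6.06%, and the E-box was in 10%, against 9.79% and 7.43%. At least 1 of the NRF1, ETS and YY1 motifs was in 44 of 70 member promoters (62.9%), against 23.7% of all. The combined share among promoters of tested genes is not given here. Each single share was higher among those promoters than over all, so 23.7% is a low base for comparison. ETS and YY1 matches can share the letters AAG. A match describes the letters and is not evidence of binding.

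The promoters below belong to 3 accessory genes of complex V that are among the 6 named falls after SMARCA4 knockdown (*ATP5MJ*, *ATP5MK* and *ATP5ME*), to 2 of the 3 genes for the c-ring subunit, which differed in opposite directions between the knockdowns (*ATP5MC1* and *ATP5MC2*), and to *COX5B*, which differed between the knockdowns. Each runs 5′ to 3′ in the direction of transcription on GRCh38.p14, and capitals mark matches to the 4 motifs on either strand.
ATP5MJ (chr14:103921480-103921779, minus strand): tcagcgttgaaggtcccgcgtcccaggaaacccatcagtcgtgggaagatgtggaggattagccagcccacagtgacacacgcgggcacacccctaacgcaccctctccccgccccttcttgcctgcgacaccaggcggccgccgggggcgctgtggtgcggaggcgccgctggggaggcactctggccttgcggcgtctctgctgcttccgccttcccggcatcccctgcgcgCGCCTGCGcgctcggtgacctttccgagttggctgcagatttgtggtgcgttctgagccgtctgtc
ATP5MK (chr10:103396426-103396725, minus strand): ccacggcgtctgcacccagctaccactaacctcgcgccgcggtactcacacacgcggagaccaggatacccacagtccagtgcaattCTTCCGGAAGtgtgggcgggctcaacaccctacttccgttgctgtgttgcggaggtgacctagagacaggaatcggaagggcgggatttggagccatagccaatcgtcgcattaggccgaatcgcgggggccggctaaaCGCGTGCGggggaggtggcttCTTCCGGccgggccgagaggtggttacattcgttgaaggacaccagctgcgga
ATP5ME (chr4:674227-674526, minus strand): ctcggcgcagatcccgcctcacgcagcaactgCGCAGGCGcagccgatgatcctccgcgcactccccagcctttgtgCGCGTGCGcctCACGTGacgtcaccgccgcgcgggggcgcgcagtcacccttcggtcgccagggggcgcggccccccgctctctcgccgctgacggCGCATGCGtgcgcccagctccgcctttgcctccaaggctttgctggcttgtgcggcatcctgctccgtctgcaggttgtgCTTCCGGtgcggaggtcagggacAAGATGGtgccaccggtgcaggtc
ATP5MC1 (chr17:48892537-48892836, plus strand): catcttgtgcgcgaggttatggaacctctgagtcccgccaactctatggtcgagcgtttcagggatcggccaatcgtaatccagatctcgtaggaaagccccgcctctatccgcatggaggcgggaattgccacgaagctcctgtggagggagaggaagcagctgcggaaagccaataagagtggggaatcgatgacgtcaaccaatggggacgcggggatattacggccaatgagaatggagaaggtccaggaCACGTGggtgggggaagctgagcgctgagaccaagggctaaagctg
ATP5MC2 (chr12:53676034-53676333, minus strand): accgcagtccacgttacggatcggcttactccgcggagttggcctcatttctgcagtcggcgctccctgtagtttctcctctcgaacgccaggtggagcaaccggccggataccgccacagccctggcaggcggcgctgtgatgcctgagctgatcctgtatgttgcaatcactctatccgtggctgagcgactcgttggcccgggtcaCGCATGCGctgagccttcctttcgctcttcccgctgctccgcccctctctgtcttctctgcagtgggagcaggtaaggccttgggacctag
COX5B (chr2:97645812-97646111, plus strand): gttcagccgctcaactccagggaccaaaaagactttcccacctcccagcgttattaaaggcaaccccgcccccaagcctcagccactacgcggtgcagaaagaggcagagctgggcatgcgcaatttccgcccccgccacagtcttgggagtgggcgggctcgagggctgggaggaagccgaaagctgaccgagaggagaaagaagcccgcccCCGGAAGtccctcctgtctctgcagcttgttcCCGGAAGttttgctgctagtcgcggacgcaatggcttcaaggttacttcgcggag
*ATP5ME* held all 4 motifs and *ATP5MK* held NRF1 and ETS matches, while the 2 c-ring promoters shown shared none: *ATP5MC1* held only an E-box and *ATP5MC2* only an NRF1 match. The 20 tested members with the ETS letters had a median log2 fold change of -0.56 after SMARCA4 knockdown, against -0.43 for the 45 tested members without them. For the NRF1 letters the medians were -0.37 in 24 genes and -0.50 in 41 genes. Genes with and without each motif were thus lower at the median, and no test was made of the difference.

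Both targets were depleted in the libraries labelled for them. *SMARCA4* was at 242 and 268 CPM (counts per 1000000, scaled by TMM factors) in the controls and between 13.3 and 25.2 CPM in the 4 SMARCA4 knockdown libraries. *SMARCA1* was at 31.5 and 32.3 CPM in the controls, 1.75 to 3.40 CPM after SMARCA1 knockdown and 57.4 to 83.8 CPM after SMARCA4 knockdown. Libraries held 23898545 to 34667965 counts assigned to genes, so that 3 counts, the limit for a gene with none, stood for 0.0899 to 0.125 CPM. The summed CPM of 11 prostate luminal markers was 10337 to 10465 in controls, 9859 to 11199 after SMARCA4 knockdown and 8967 to 10626 after SMARCA1 knockdown. Endothelial and leukocyte markers summed to at most 3.16 CPM in any library, with 1 of 3 and 2 of 4 of them at 0 in the controls. Markers of fibroblasts (5 genes) summed to 23.4 to 26.7 CPM in controls, 18 to 34.9 CPM after SMARCA4 knockdown and 36.9 to 55.2 CPM after SMARCA1 knockdown. Among them *LUM* was at 16.9 CPM in controls and 32.3 CPM after SMARCA1 knockdown at the mean, and *COL1A2* at 2.02 and 0.016 CPM. A list of 10 interferon response genes summed to 60.6 to 64.7 CPM in controls, 10476 to 31724 CPM after SMARCA4 knockdown and 15635 to 32350 CPM after SMARCA1 knockdown. Every comparison with control below therefore also compares cells with and without raised interferon response genes, and their part in the results was not tested. If the controls were not transfected, each also compares transfected with untransfected cells, which cannot be told apart from the knockdown here. SMARCA1 siRNA A replicate 1 stood apart from the other SMARCA1 knockdown libraries in the members: its median log2 difference from the control mean was 0.03, against -0.20 to -0.28 in the other 3. Values without it are given where they differ. Shares of all genes are given for the main fit only, and counts from other fits or thresholds have none beside them. Leaving out a library changes the test for every gene, not only for members.

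In control cells the most abundant subunit transcript per length was *ATP5F1B*, the catalytic beta subunit of the ATP synthase, at 3278 TPM (transcripts per 1000000, from counts and exon lengths). The next was *COX8A* of complex IV, at 2326 TPM. The leading genes of the other complexes were *UQCRH*, the hinge protein of complex III (654 TPM), *NDUFB7* of complex I (590 TPM) and *SDHB*, the iron-sulfur subunit of complex II (155 TPM). The median over all listed genes of a complex was 65.1 TPM for complex I, 106 TPM for complex II, 165 TPM for complex III, 128 TPM for complex IV and 180 TPM for complex V.

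The alternative isoforms known from other tissues were hardly counted. *COX4I2*, *COX6A2*, *COX7B2* and *COX8C* had 0 counts in all libraries, and *COX6B2*, *COX7A1* and *ATP5MGL* had at most 3. Their general forms were well counted in controls: *COX4I1* at 79.4 TPM, *COX6A1* at 243 TPM, *COX7A2* at 224 TPM and *COX8A* as above. *NDUFA4L2*, which is known as a hypoxia-induced gene, had 6 to 26 counts against 2170 to 3337 for *NDUFA4*. It was 0.46 and 0.966 CPM in the controls, 0.556 to 0.807 CPM after SMARCA4 knockdown and 0.244 to 0.8 CPM after SMARCA1 knockdown, and passed no test (adjusted p = 0.76 and 0.6, edgeR's quasi-likelihood test).

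Some subunits known to be required were counted at levels far below their partners. *NDUFA7* had 0 to 6 counts, *NDUFA13* 6 to 16 and *NDUFV2* 17 to 35, and *SDHA*, the flavoprotein of complex II, had 224 to 464 (4.83 TPM in controls). Each shares at least 10% of its exon bases with another annotated gene on the same strand, as do 16 of the 89 subunit genes, and *NDUFV2* also has a pseudogene, *NDUFV2P1*, with 134 to 198 counts. Of these 16 genes, 14 were tested, and without them 49 of 67 members were lower after SMARCA4 knockdown and 22 after SMARCA1 knockdown. *NDUFA11* (78 to 147 counts) and *UQCRHL*, a near copy of *UQCRH* that can share its reads (33 to 86 counts), are uncertain for the same kind of reason.

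Transcripts of all 5 complexes were lower after SMARCA4 knockdown (adjusted p under 0.05, edgeR's quasi-likelihood test with Benjamini-Hochberg adjustment over 16899 genes). Of 81 members tested, 56 were lower and 0 higher, where 22.3% of all genes tested were lower and 22.8% higher. At an unadjusted p under 0.05, 60 were lower and 0 higher, and DESeq2 called 54 lower and 0 higher. The median log2 fold change was -0.48 over the members and 0.00 over all genes. In 65 members all 4 knockdown libraries lay below both controls (29% of all genes), and in 1, *NDUFV2*, all lay above (29.5% of all genes). In bulk RNA, less RNA per cell and fewer cells of a kind cannot be told apart. Without control replicate 1, which held more of many members than control replicate 2, 31 members were lower and the median was -0.39.

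The fall was largest at the median in complex V and smallest in complex I, and the difference between complexes was not tested. In complex V, 17 of 18 genes were lower (median -0.67). In complex IV 10 of 13 were lower (median -0.56), in complex II 3 of 4 (median -0.50), in complex III 7 of 10 (median -0.47) and in complex I 19 of 36 (median -0.32). Without control replicate 1 the counts were 12, 6, 2, 4 and 7 in the same order, and complex V still had the lowest median (-0.59) and complex I the highest (-0.25).

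**Figure D1:**
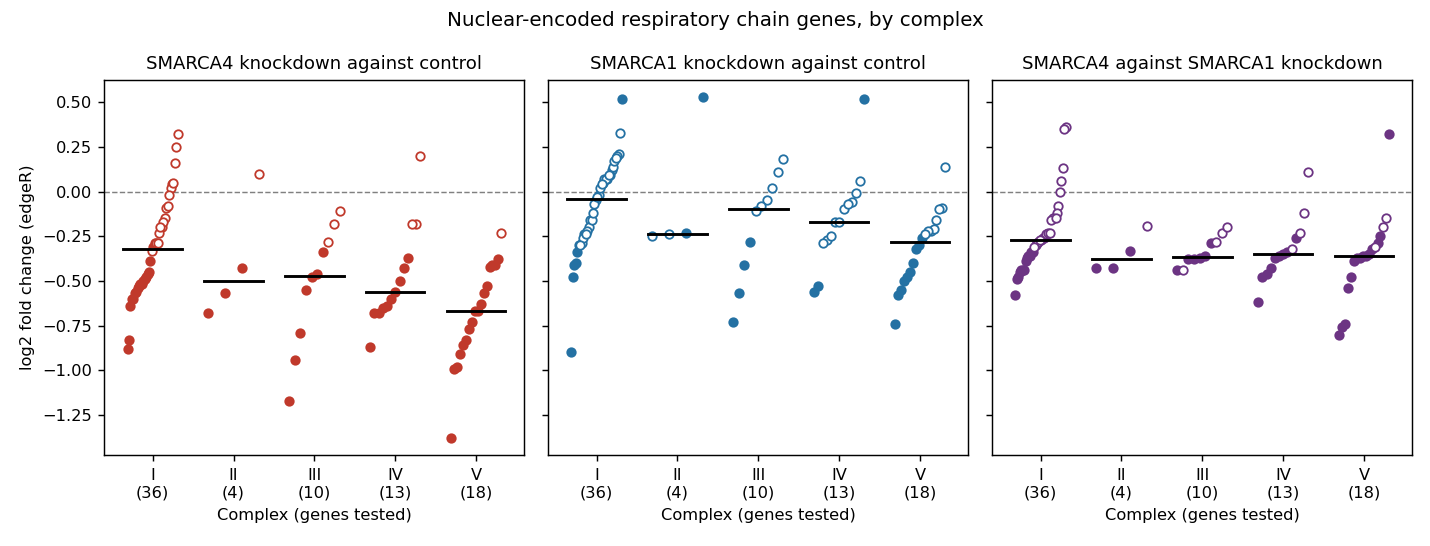
Log2 fold change (vertical axis, edgeR) of each tested member, by complex, for 3 comparisons; filled points have an adjusted p under 0.05, open points do not, and the black bar is the median of the complex. After SMARCA4 knockdown the filled points all lie below 0, whereas after SMARCA1 knockdown 23 lie below and 3 above; in the direct comparison 50 lie below and 1 above.

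Summed transcript levels gave the same picture per library. The 89 subunit genes together reached 70.8% to 76.6% of the control mean of their summed TPM after SMARCA4 knockdown. Complex V was at 60.7% to 70.7%, complex III at 67.5% to 79.6%, complex II at 68.6% to 72.0%, complex IV at 72.8% to 80.6% and complex I at 76.1% to 85.8%. The 4 knockdown libraries lay below both controls in each complex. *ATP5F1B* alone made up about as much TPM as the rest of complex V, and the other 18 genes of complex V were at 61.1% to 71.5% without it.

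**Figure D2:**
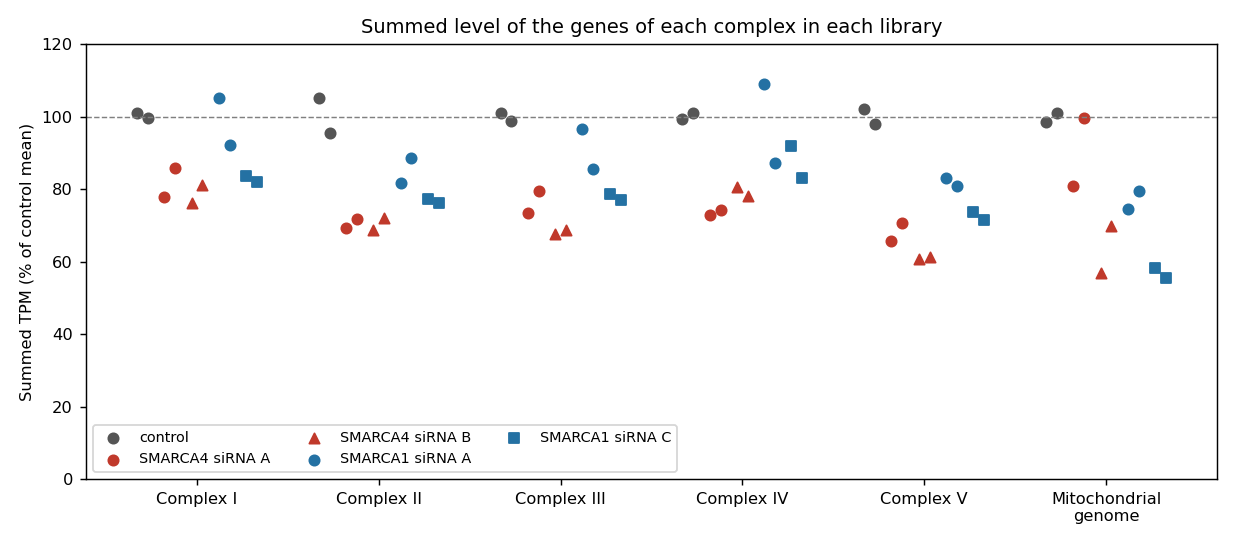
Summed TPM of each complex's nuclear genes, and of the 13 respiratory genes of the mitochondrial genome, in each library, as percent of the mean of the 2 controls; each point is 1 library and colours and shapes mark the siRNA. SMARCA4 knockdown libraries sit at 60.7% to 85.8% in all 5 complexes, and SMARCA1 siRNA A replicate 1 sits above the other SMARCA1 knockdown libraries in complexes I, III, IV and V, at 105%, 96.5%, 109% and 83.2%.

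The largest falls after SMARCA4 knockdown that both siRNAs shared were in small membrane subunits of complex V and in the hinge protein of complex III. *ATP5MJ*, a small subunit of the membrane part of the ATP synthase, was at 64.4 and 49.6 CPM in the controls and at 19.2, 17.8, 26.1 and 25.6 CPM in the knockdown libraries. Its log2 fold change was -1.38 (SE 0.13, adjusted p = 3.5e-05, edgeR), to 38.9% of the control mean. *ATP5ME*, which helps ATP synthases to pair, fell from 75.8 and 66.8 CPM to between 30.6 and 42.0 CPM (log2 fold change -0.99, SE 0.13). *ATP5MK*, also implicated in pairing, fell from 69.1 and 56.7 CPM to between 28.7 and 37.5 CPM (-0.91, SE 0.10). It is among the genes described above that share exon bases with another gene. *ATP5MJ*, *ATP5ME* and *ATP5MK* were at 38.9% to 53.4% of the control mean, with no overlap between groups. *UQCRH* fell from 210 and 191 CPM to between 92.9 and 123 CPM (log2 fold change -0.94, SE 0.11, adjusted p = 0.00011, edgeR). *UQCRHL* gave -1.17 (SE 0.23) at 3.60 and 3.08 CPM in controls, and its reads may belong in part to *UQCRH*.

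The membrane part and the catalytic head of the ATP synthase were both represented. All 5 genes of the F1 head and central stalk were lower, with *ATP5F1D*, the delta subunit, at 79.2 and 88.3 CPM in controls and 39.7 to 53.2 CPM after knockdown (log2 fold change -0.83, SE 0.12). *ATP5F1B* was at 1684 and 1665 CPM in controls and between 944.5 and 1141 CPM after knockdown (-0.67, SE 0.08, adjusted p = 0.0002, edgeR), although this gene was outside the rule for named genes and was chosen after its values were seen for its abundance. All 4 genes of the peripheral stalk were lower (median -0.68), as were all 3 genes for the c-ring (median -0.67), though the call for *ATP5MC2* was lost without either control, SMARCA4 siRNA A replicate 1, SMARCA4 siRNA B replicate 1 or SMARCA1 siRNA C replicate 1. The ATPase inhibitor *ATP5IF1* fell by 0.38 on the log2 scale (SE 0.11, adjusted p = 0.016, edgeR), a call that was lost when either control was left out (also without SMARCA4 siRNA A replicate 1 or either library of SMARCA4 siRNA B). The gene of complex V that was not called was *ATP5MF* (-0.23, SE 0.14, adjusted p = 0.2, edgeR).

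In each of complexes II to IV most of the nuclear genes tested were lower. *SDHB* was at 83.3 and 81.6 CPM in controls and 51.9 to 60.6 CPM after knockdown (log2 fold change -0.57, SE 0.08). The membrane anchors *SDHC* and *SDHD*, which hold the ubiquinone site, fell by 0.43 and 0.68 (SE 0.10 and 0.11), whereas *SDHA* was at 9.37 and 9.96 CPM in controls and 9.71 to 11.3 CPM after knockdown. In complex III the Rieske iron-sulfur protein gene *UQCRFS1* and the core protein gene *UQCRC2* fell by 0.46 and 0.48 (SE 0.10 and 0.09). *UQCRC1*, the other core protein gene, was at -0.11 (SE 0.11, adjusted p = 0.42, edgeR), with all 4 knockdown libraries below both controls. *CYC1*, cytochrome c1, fell by 0.34 (SE 0.11, adjusted p = 0.025, edgeR), a call lost when any 1 of the controls, SMARCA4 knockdown libraries or SMARCA1 siRNA C libraries was left out. In complex IV the named genes *COX4I1*, *COX6A1*, *COX7A2*, *COX7A2L* and *NDUFA4* fell by 0.56, 0.65, 0.60, 0.43 and 0.68. *COX7A2L* is known to help complexes III and IV associate. *COX6B1* (-0.18) and *COX5A* (0.20) were not called.

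In complex I the response was uneven. Of the 7 core genes, which carry the flavin and the iron-sulfur clusters, 3 were lower (median -0.20), and of the 29 accessory genes tested 16 were lower (median -0.39). *NDUFS1*, which carries iron-sulfur clusters, fell from 241 and 247 CPM to between 115 and 162 CPM (log2 fold change -0.83, SE 0.12). *NDUFV1*, the NADH-binding flavoprotein, chosen after its values were seen as the largest fall in complex I, went from 327 and 368 CPM to between 162 and 232 CPM (-0.88, SE 0.11). By contrast *NDUFS8*, another core gene singled out after its values were seen, was at 201 and 214 CPM in controls and 192 to 203 CPM after knockdown (-0.08, SE 0.12, adjusted p = 0.62, edgeR). *NDUFAB1*, the mitochondrial acyl carrier protein, which also serves lipoic acid synthesis, fell by 0.48 (SE 0.12, adjusted p = 0.0068, edgeR). Without control replicate 1 the calls for *NDUFAB1*, *SDHC*, *UQCRFS1* and *COX7A2L* were lost, and that for *COX4I1* was lost without control replicate 2.

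Both SMARCA4 siRNAs gave falls in all complexes. With siRNA A 47 members were lower (15.8% of all genes were), and with siRNA B 53 were lower (21.9% of all genes were) and 1, *NDUFA9*, was higher. A total of 45 members were lower with each, and the share of all genes lower with both is not given here. The siRNA A count was 13 without control replicate 1, 30 without control replicate 2, 15 without SMARCA4 siRNA A replicate 1 and 27 without its replicate 2, and the siRNA B count was 35 without control replicate 1. Between the siRNAs themselves 1 member, *ATP5MC1*, was called (6.2% of all genes were called in either direction). With DESeq2 2 members were called. Without SMARCA1 siRNA A replicate 1 or replicate 2 the count was 15, and it was 0 with only the libraries compared and without control replicate 1 or 2, SMARCA4 siRNA A replicate 2, SMARCA4 siRNA B replicate 1 or 2, or SMARCA1 siRNA C replicate 1 or 2.

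Fewer members changed after SMARCA1 knockdown. Of 81, 23 were lower and 3 higher, where 23% of all genes tested were lower and 23.8% higher, so that the share lower (28.4%) was near that of all genes and the share higher was below it. The median log2 fold change was -0.17 over the members and 0.00 over all genes. All 4 knockdown libraries lay below both controls in 25 members (29.1% of all genes) and above in 6 (29.1% of all genes), and the groups overlapped in the other 50. All 23 genes were also lower after SMARCA4 knockdown, in a comparison that shares the same 2 controls. The share of all genes lower in both is not given here, so the overlap is not read as a trait of the members. The count lower depended on single libraries: it was 37 without SMARCA1 siRNA A replicate 1, 3 without control replicate 1, 13 without control replicate 2, 14 without SMARCA1 siRNA C replicate 1 and 11 without its replicate 2. The count higher was 11 without SMARCA1 siRNA A replicate 2.

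Here too complex V had the lowest median, with 10 of 18 genes lower (median -0.28). Complex I had 6 lower and 1 higher of 36 (median -0.04), complex II 1 lower and 1 higher of 4 (median -0.24), complex III 4 lower of 10 (median -0.09) and complex IV 2 lower and 1 higher of 13 (median -0.17). Without SMARCA1 siRNA A replicate 1 complex V had 15 genes lower and complex I 11, and without control replicate 1 each had 1. Summed TPM was at 71.5% to 83.2% of the control mean in complex V. In complex I it was 105% in SMARCA1 siRNA A replicate 1 and 81.9% to 92.2% in the other 3 libraries. For all 89 genes it was 96.9% in that library and 77.9% to 86.2% in the others. TPM carry no TMM factors, unlike the CPM and the log2 fold changes, so the 2 scales differ. On the CPM scale the median log2 difference of complex I genes from the control mean was 0.21 in that library. It was -0.07 to -0.16 in the other 3 libraries.

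The falls that both SMARCA1 siRNAs shared were led by *NDUFS1*. It was at 124, 156, 124 and 120 CPM in the knockdown libraries, all below the controls at 241 and 247 CPM (log2 fold change -0.90, SE 0.12, adjusted p = 0.00026, edgeR). *ATP5MC2* was at 82.9 to 120 CPM, against 173 and 147.5 CPM in the controls (-0.74, SE 0.13). *ATP5MJ* fell by 0.58, *UQCRH* by 0.57, *NDUFA4* by 0.56 and *COX7C*, a small membrane subunit of complex IV, by 0.53 (SE 0.10 to 0.13). All 6 genes were below both controls in all 4 libraries. Without control replicate 1 the calls for *ATP5MJ*, *NDUFA4* and *COX7C* were lost. *UQCRC2* and *ATP5MC3* fell by 0.28 and 0.32, calls that were lost without either control or either library of SMARCA1 siRNA C, among others, and the call for *ATP5MC1* (-0.50) was lost without control replicate 1. *SDHB* fell by 0.23 (adjusted p = 0.046, edgeR), and DESeq2 did not call it.

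The 3 genes that were higher after SMARCA1 knockdown were *SDHA*, *NDUFA9* and *COX5A*. *SDHA* was at 13.1 to 15.1 CPM against 9.37 and 9.96 CPM (log2 fold change 0.53, SE 0.12, adjusted p = 0.0049, edgeR), and *NDUFA9* at 22.5 to 30.6 CPM against 19.5 and 18.9 CPM (0.52, SE 0.12). Both share exon bases with another gene, as described above. *COX5A*, named here because only 3 genes rose, was at 178 to 254 CPM against 167 and 151 CPM (0.52, SE 0.15, adjusted p = 0.016, edgeR) and was not called with siRNA A (adjusted p = 0.11, edgeR).

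Of the other named genes *CYC1* (0.02), *UQCRFS1* (-0.08), *UQCRC1* (0.18), *NDUFAB1* (-0.05), *COX4I1* (-0.10), *COX6A1* (-0.17), *COX7A2* (-0.25), *COX7A2L* (-0.17), *SDHC* (-0.24), *SDHD* (-0.25) and *ATP5IF1* (-0.10) did not pass the test, although *COX4I1*, *COX6A1* and *COX7A2* did without SMARCA1 siRNA A replicate 1, *SDHD* without control replicate 2 and *UQCRC1* without SMARCA1 siRNA A replicate 2. With SMARCA1 siRNA A 9 members were lower (16.3% of all genes were), a count that each left-out library moved by more than 1.5 times, to between 1 and 15, and 1 was lower with only the libraries compared. With siRNA C 25 were lower (21.5% of all genes were), 44 with only the libraries compared, and 8 without control replicate 1, 8 without SMARCA1 siRNA C replicate 2, 13 without its replicate 1 and 38 without SMARCA1 siRNA A replicate 1. A total of 9 members were lower with each siRNA, and the share of all genes lower with both siRNAs is not given here. No member was called between SMARCA1 siRNAs C and A (0.0118% of all genes were): edgeR and DESeq2 called 0, at an unadjusted p under 0.05 edgeR gave 12 lower with siRNA C, and 23 were called without SMARCA1 siRNA A replicate 2.

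**Figure D3:**
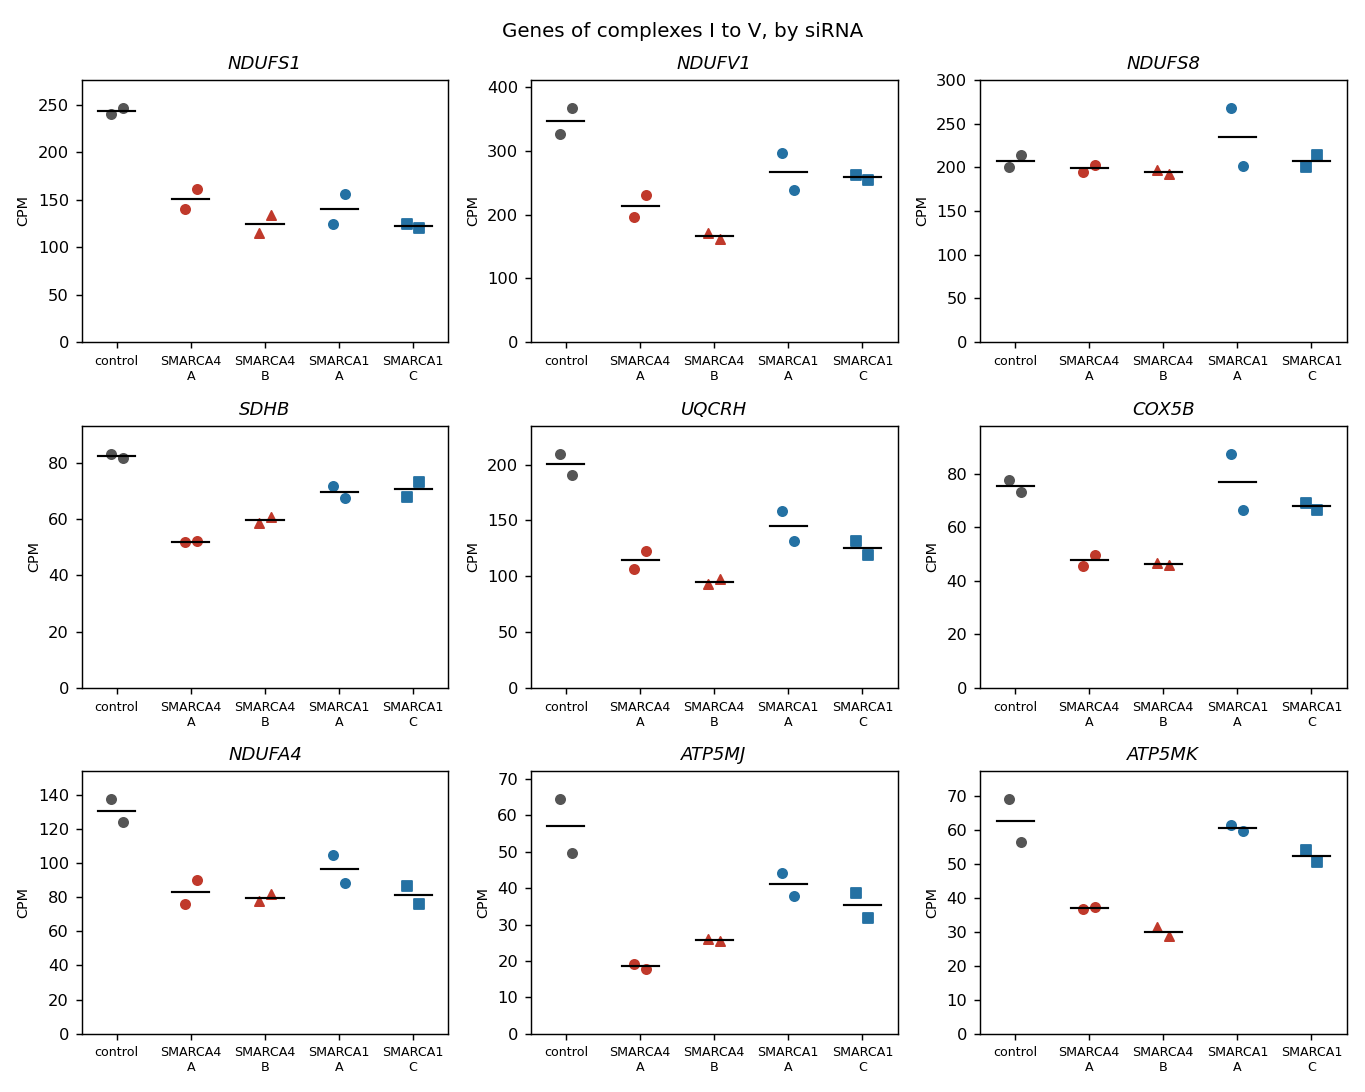
CPM in each library (points) and the mean of each group (bars) for 9 genes of complexes I to V, with the siRNA on the horizontal axis and each vertical axis starting at 0. *NDUFS1* and *NDUFA4* are low in both knockdowns, *COX5B*, *ATP5MK* and *SDHB* are lowest after SMARCA4 knockdown, and *NDUFS8* overlaps its controls.

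Set directly against each other, the knockdowns differed in most members, and the comparison does not use the controls except for the estimate of spread. After SMARCA4 knockdown 50 of 81 members were lower than after SMARCA1 knockdown (19.1% of all genes were) and 1 was higher (16.3% of all genes were), with a median log2 difference of -0.33 against -0.01 over all genes. All 4 SMARCA4 libraries lay below all 4 SMARCA1 libraries in 47 members (13.8% of all genes) and above in 1, *NDUFV2*, which has few counts and was not called (13% of all genes). By complex 18 of 36, 3 of 4, 6 of 10, 9 of 13 and 14 of 18 were lower in complexes I to V, with medians between -0.27 and -0.38. Without SMARCA1 siRNA A replicate 1, 47 members were lower and the median was -0.24. The count was 26 without SMARCA1 siRNA C replicate 1, 33 without SMARCA4 siRNA A replicate 1 and 30 without SMARCA4 siRNA B replicate 2. Summed interferon response levels overlapped between the knockdowns in this comparison, at 10476 to 31724 CPM and 15635 to 32350 CPM.

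The largest differences were again in complex V. *ATP5MJ* was 17.8 to 26.1 CPM after SMARCA4 knockdown and 31.8 to 44.2 CPM after SMARCA1 knockdown (log2 difference -0.80, SE 0.11). *ATP5MK* was 28.7 to 37.5 CPM against 50.6 to 61.6 CPM (-0.76, SE 0.09, adjusted p = 0.00024, edgeR). *ATP5F1D* was 39.7 to 53.2 CPM against 67.2 to 104 CPM (-0.74, SE 0.10), and *COX5B*, a zinc-binding subunit of complex IV, 45.7 to 49.7 CPM against 66.5 to 87.6 CPM (-0.62, SE 0.10). In these 4 genes the 2 sets of libraries did not overlap, and *ATP5MK* shares exon bases with another gene. *NDUFS1* and *NDUFA4*, in contrast, differed by 0.06 and -0.12 (SE 0.10 and 0.09, adjusted p = 0.64 and 0.35, edgeR).

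The 3 genes for the c-ring subunit code for the same mature protein, which forms the rotating ring of the ATP synthase, and differ in the leader that guides import. Their values differed in opposite directions between the knockdowns. *ATP5MC1* was at 77.2 and 74.9 CPM in controls, 46.2 and 52.7 CPM with SMARCA4 siRNA A, 32.02 and 28.4 CPM with SMARCA4 siRNA B and 46.8 to 65.6 CPM after SMARCA1 knockdown. *ATP5MC2* was at 173 and 147.5 CPM in controls, 106 to 143 CPM after SMARCA4 knockdown and 82.9 to 120 CPM after SMARCA1 knockdown. *ATP5MC3* was at 214 and 196 CPM in controls, 117 to 143 CPM after SMARCA4 knockdown and 148 to 191 CPM after SMARCA1 knockdown. *ATP5MC1* and *ATP5MC3* were thus lower after SMARCA4 than after SMARCA1 knockdown (log2 differences -0.48 and -0.35, SE 0.10 and 0.08), and the call for *ATP5MC3* was lost without SMARCA1 siRNA C replicate 1. For *ATP5MC1* the libraries of SMARCA4 siRNA B lay below all SMARCA1 knockdown libraries, whereas those of siRNA A overlapped them (log2 fold change against control -0.62 with siRNA A, beside -0.50 after SMARCA1 knockdown). *ATP5MC2* was the member that was higher (0.32, SE 0.11, adjusted p = 0.038, edgeR), with overlapping libraries. That call was lost without either control, SMARCA4 siRNA A replicate 2, SMARCA4 siRNA B replicate 2, SMARCA1 siRNA A replicate 2 or either SMARCA1 siRNA C library. In controls the order per length was *ATP5MC3* (231 TPM), *ATP5MC2* (180 TPM) and *ATP5MC1* (127 TPM).

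**Figure D4:**
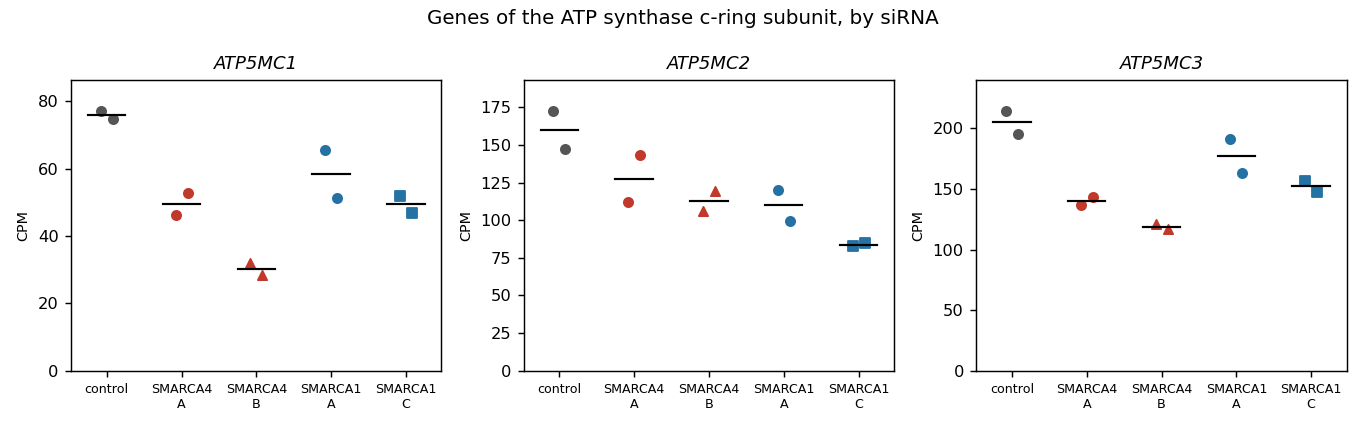
CPM of the 3 c-ring genes in each library (points), with group means (bars) and axes starting at 0. *ATP5MC1* is lowest with SMARCA4 siRNA B, at 28.4 and 32.02 CPM, while *ATP5MC2* is lowest with SMARCA1 siRNA C, at 82.9 and 84.6 CPM.

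The 13 respiratory genes of the mitochondrial genome were lower in part after both knockdowns, and differed between the SMARCA4 siRNAs. After SMARCA4 knockdown 8 of 13 were lower and 0 higher (median -0.46), where 22.3% of all genes were lower and 22.8% higher. DESeq2 and an unadjusted p under 0.05 also gave 0 higher. With SMARCA4 siRNA A 2 of 13 (15.4%) were lower, near the 15.8% of all genes (median -0.23). With siRNA B 9 of 13 were lower, against 21.9% of all genes (median -0.69). Between these siRNAs all 13 log2 differences were below 0 (median -0.46) and 5 were called, or 9 with DESeq2 (edgeR called 6.2% of all genes in either direction). After SMARCA1 knockdown 9 were lower and 0 higher (median -0.58), where 23% of all genes were lower and 23.8% higher. By siRNA 6 were lower with SMARCA1 siRNA A (16.3% of all genes were) and 9 with siRNA C (21.5% of all genes were). Between the knockdowns, with the SMARCA4 siRNAs averaged, edgeR called 0 (1 lower and 2 higher at an unadjusted p under 0.05, and 1 higher with DESeq2), and the median was 0.15. No test compared these genes with the nuclear genes. Their summed TPM was at 57.0% to 99.5% of the control mean after SMARCA4 knockdown and 55.4% to 79.6% after SMARCA1 knockdown. Falls past 1 on the log2 scale were seen for *MT-CO3*, a core subunit of complex IV (-1.16 and -1.37 after SMARCA4 and SMARCA1 knockdown, SE 0.19 for both), and *MT-ATP8* of complex V (-1.01 and -1.34). *MT-ATP6* was at -0.90 and -1.22, *MT-CYB*, cytochrome b of complex III, at -0.75 and -1.11, and *MT-ND3* of complex I at -1.29 and -0.91. The SMARCA4 values average 2 unlike siRNAs: the largest fall among the 13 was -0.75 with siRNA A and -1.82 with siRNA B. *MT-CO1* (-0.16 and -0.17) and *MT-CO2* (0.04 and 0.00) passed neither test and were named after their values were seen. The reading frames of *MT-ATP8* and *MT-ATP6* overlap, so their counts are not independent.

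Genes that build or feed the chain were listed beside the subunits. Their counts stand against 22.3% of all genes lower and 22.8% higher after SMARCA4 knockdown, and 23% lower and 23.8% higher after SMARCA1 knockdown. Of 48 assembly factor genes 24 (50%) were lower and 1 higher after SMARCA4 knockdown (median -0.37), and 19 (39.6%) were lower and 6 higher after SMARCA1 knockdown (median -0.23). Among complex I factors *NDUFAF4* and *NDUFAF8* fell by 1.24 and 1.26 after SMARCA4 knockdown and by 0.54 and 0.71 after SMARCA1 knockdown. *NUBPL*, which delivers iron-sulfur clusters to complex I, was at -0.95 and -1.22. *SDHAF3*, a complex II factor, was at -1.08 and -0.73. *LYRM7*, which chaperones the Rieske protein of complex III, was at -1.71 and -2.06 (SE 0.24 for both). *COX18*, which inserts a subunit of complex IV, was lower after SMARCA1 than after SMARCA4 knockdown (-1.79 against -1.03, difference adjusted p = 0.0002, edgeR), and *LRPPRC*, which stabilises mitochondrial messenger RNAs, was lower after SMARCA4 knockdown (-1.19 against -0.66, difference adjusted p = 0.0041, edgeR).

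Of 7 genes for electron and adenine nucleotide carriers 5 were lower and 0 higher after SMARCA4 knockdown, and 4 were lower and 1 higher after SMARCA1 knockdown. *CYCS*, cytochrome c, was at 315 CPM in controls, 142 CPM after SMARCA4 knockdown and 210 CPM after SMARCA1 knockdown at the mean (log2 fold changes -1.17 and -0.58, SE 0.09 for both). The adenine nucleotide translocase gene *SLC25A5* was at -1.04 and -0.30, and *SLC25A6* at -1.71 and -1.40. Of 14 genes of the tricarboxylic acid cycle, which supplies NADH and succinate, 11 were lower and 0 higher after SMARCA4 knockdown (median -0.42) and 7 lower and 1 higher after SMARCA1 knockdown (median -0.25). Citrate synthase, *CS*, was at -1.06 and -0.51 (SE 0.08 for both).

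Of 13 genes for transcription factors and coactivators of respiratory genes 8 (61.5%) were lower and 0 higher after SMARCA4 knockdown (median -0.41), and 8 lower and 1 higher after SMARCA1 knockdown (median -0.28). The shares of all genes are those given above. With SMARCA4 siRNA A 5 were lower and with siRNA B 10, and 3 were called between these siRNAs. With SMARCA1 siRNA A 3 were lower (16.3% of all genes were) and with siRNA C 6 (21.5% of all genes were). With the siRNAs of a target averaged, DESeq2 called 5 and 4 lower and 0 higher in both comparisons. *MYC*, which is among the factors that bind respiratory gene promoters, was at 323 CPM in controls, 64.4 CPM after SMARCA4 knockdown and 175 CPM after SMARCA1 knockdown at the mean (log2 fold changes -2.51 and -0.89, SE 0.16 for both). The SMARCA4 value averages -1.77 with siRNA A and -3.25 with siRNA B. *PPARGC1B*, a coactivator of mitochondrial genes, was at -1.14 and -0.70 (SE 0.25 for both). The 1 gene higher after SMARCA1 knockdown was its paralog *PPARGC1A* (0.95, SE 0.34), at 0.585 CPM in controls and 1.16 CPM at the mean. It was at -0.06 after SMARCA4 knockdown.

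The 4 matching genes that encode no subunit carried few reads. *NDUFA6-DT* had 7 to 43 counts and was at 0.26 (SE 0.34) after SMARCA4 knockdown and -0.90 (adjusted p = 0.069, edgeR) after SMARCA1 knockdown. *UQCRFS1-DT* had at most 6 counts, *ATP5MF-PTCD1* at most 5 and *NDUFC2-KCTD14* at most 1 in any library, and none of the 3 was tested.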

How the data were processed

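Strand-specific, poly(A)-selected RNA libraries from VCaP cells were sequenced as read pairs. The authors deposited raw counts per gene with exon lengths, and the submitters' processing notes name HISAT2 2.1.0, featureCounts 1.5.2 and hg38. The annotation release and the strand and multimapping settings are not given in the sources used here. From the deposited counts, genes were filtered with filterByExpr (minimum count 10, minimum total 15; 16899 genes kept), scaled by TMM and tested with edgeR 4.0.16's quasi-likelihood test in R 4.3.3 on all 10 libraries as 5 groups, with Benjamini-Hochberg adjustment and a threshold of 0.05. A knockdown is the mean of its 2 siRNAs. TPM were computed from counts and exon lengths. The test was tested on simulated data. Alternatives were DESeq2 1.42.0, other scaling, other gene filters, the replicate block, the libraries compared alone and each library left out. Members and lists were chosen with earlier results of these data known. Named genes were the 6 largest falls and rises per knockdown called with both siRNAs, the 4 largest differences in each direction between knockdowns, a list of 22 catalytic and isoform genes, and other listed genes called with a log2 fold change of at least 1 in either direction. The limit of 3 counts for a gene with none covers counting error only. Standard errors come from the quasi-likelihood fit and include the spread between libraries. Per the file headers the exon length column has no sample.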

Additional observations from a re-analysis of the deposited data

Results flagged for a closer look

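*ATP5MC1*, a c-ring gene of complex V, was called as different between the 2 siRNAs against *SMARCA4*: the difference itself (siRNA B against siRNA A) was -0.71 on the log2 scale (SE 0.14, adjusted p = 0.022, edgeR's quasi-likelihood test). Its 2 libraries for siRNA A held 46.2 and 52.7 CPM, and those for siRNA B held 32.02 and 28.4 CPM. Against control the log2 fold change was -0.62 for siRNA A and -1.33 for siRNA B, both called. The difference between the siRNAs was not called with only the libraries compared (adjusted p = 0.057, edgeR) or without any 1 of 7 libraries (both controls, both SMARCA1 siRNA C libraries, both SMARCA4 siRNA B libraries and SMARCA4 siRNA A replicate 2), where it was -0.61 to -0.78 with adjusted p of 0.051 to 0.16.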

How the results depend on the processing

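Scaling, DESeq2, the gene filters and the fit of only the libraries compared kept the counts of members lower after SMARCA4 knockdown at 54 to 60 (56 as reported), after SMARCA1 knockdown at 19 to 25 (23) and between the knockdowns at 44 to 49 (50). Median log2 fold changes of the members stayed between -0.44 and -0.49, -0.16 and -0.19, and -0.30 and -0.33 in these fits. Without genes sharing exon bases, a choice made after seeing the data, 49, 22 and 41 members were lower and 1, not 3, was higher after SMARCA1 knockdown. With only the libraries compared, 1 member was lower with SMARCA1 siRNA A, 44 with SMARCA1 siRNA C, 0 were higher after SMARCA4 than after SMARCA1 knockdown and 0 were called between the SMARCA4 siRNAs. Between those siRNAs 2 members were called with DESeq2, with library totals or without mitochondrial genome genes, and 4 with every gene with a count. The main fit used 1 estimate of spread for all groups, and the groups did not vary alike. Chi-square per gene between the 2 libraries of a group, against counting noise alone, was 60.6 for SMARCA1 siRNA A and 42.9 for SMARCA4 siRNA A. It was 22.6 for SMARCA4 siRNA B, 6.39 for control and 3.8 for SMARCA1 siRNA C. The cause of these changes was not tested.

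With 1 library left out, the counts lower ranged from 31 to 63 after SMARCA4 knockdown, 3 to 37 after SMARCA1 knockdown, 26 to 63 between the knockdowns, 13 to 59 and 35 to 58 with SMARCA4 siRNAs A and B, and 1 to 15 and 8 to 38 with SMARCA1 siRNAs A and C. The counts higher ranged from 0 to 1, 2 to 11 and 0 to 1 in the first 3 comparisons, and the counts between the siRNAs of a target from 0 to 15 for SMARCA4 and 0 to 23 for SMARCA1. A group left with 1 library is assumed to vary like the others, although the groups did not vary alike. Shares of all genes in these fits are not given, so the changes in count are not read as particular to the members. With 2 libraries per group, which of them departs from its condition cannot be told.

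Of 1207 values of named genes under the alternatives, 1090 kept their direction and side of the threshold, 96 lost the call, 7 gained one and 14 changed sign, and 0 of these 14 belonged to a called gene. Against control after SMARCA1 knockdown, *CYC1* was -0.01 with library totals and -0.07 to 0.12 with 1 library left out, *UQCRFS1* -0.15 to 0.02, *ATP5IF1* -0.17 to 0.00, *NDUFAB1* -0.13 to 0.06, *COX4I1* -0.22 to 0.02 and *NDUFA4L2* -0.77 to 0.37. *NDUFA4L2* ranged from -0.56 to 0.49 after SMARCA4 knockdown and from -0.14 to 0.60 between the knockdowns, at 6 to 26 counts.

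The replicate numbers were not described as a shared batch, and deviations of same-numbered libraries from their group means correlated at -0.103 to 0.362 between groups, so no pairing was assumed. With the replicate block 55, 21 and 51 members were lower in the 3 main comparisons and 3 were called between the SMARCA4 siRNAs. Genes with few counts, such as *NDUFV2*, *NDUFA13* and *NDUFA4L2*, are limited by depth.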

Other observations

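Reads on pseudogenes of the members were few. *NDUFV2P1* had 134 to 198 counts per library, against 17 to 35 for *NDUFV2*, and *UQCRFS1P1* had 65 to 171. *COX6A1P2* had 26 to 48 counts and was at -0.74 after SMARCA4 knockdown and -0.80 after SMARCA1 knockdown on the log2 scale (adjusted p = 0.027 and 0.019, edgeR), beside -0.65 and -0.17 for *COX6A1*.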
